A study of Mus musculus with 12 samples.

Results

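Aquaporins are small membrane channels for water, and a subset of them, the aquaglyceroporins, also passes glycerol. The transcripts of 8 aquaporin genes, Aqp1, Aqp3, Aqp4, Aqp5, Aqp7, Aqp8, Aqp9 and Aqp11, were taken by gene symbol from a count table of mouse adipose tissue, where all 8 of 8 were found among 23420 genes. The table covers 12 libraries, 3 from each of 4 depots of untreated male C57BL/6 mice aged 8 weeks and kept at ambient temperature. The brown depots are interscapular (iBAT) and supraclavicular (scBAT) fat, and the white depots are inguinal subcutaneous (iWAT) and epididymal (eWAT) fat. Each library is whole tissue, in which vessels, immune cells and neighbouring tissue add reads to those of adipocytes, and fewer cells of a type cannot be told apart from less RNA per cell. Whether libraries of a depot came from different mice is not stated in the labels, so p-values measure the spread between these libraries, which may be technical.

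When an adipocyte breaks down its stored triglyceride, fatty acids and glycerol leave the cell, and glycerol passes through Aqp7, the main glycerol channel of adipocytes. Aqp7 protein has also been reported in the capillaries of mouse fat. Aqp3 and Aqp9 are further aquaglyceroporins, the former of epithelia and also of lymphocytes, the latter of liver and leukocytes. Aqp11 is an unusual family member that sits in intracellular membranes. Aqp1 is the water channel of capillary endothelium and red cells, Aqp5 that of salivary acinar cells, Aqp4 that of astrocytes and fast skeletal muscle fibres, and Aqp8 is known from gut, liver and testis.

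Aqp7 and Aqp3 are neighbours on the minus strand of chromosome 4 (GRCm38, GENCODE vM21), at 41033074 to 41048139 and 41092722 to 41098183. The gap between them is 44582 bases and holds 0 annotated protein-coding genes. Aqp1 lies on chromosome 6 at 55336432 to 55348555, and none of these 3 genes overlaps another annotated gene. The bases before the start site of these genes are shown because the neighbours had opposite patterns across depots and because Aqp1 and Aqp7 were the 2 abundant channels. They come from RefSeq (GRCm38.p6), run 5′ to 3′ on the gene's strand, and leave out every annotated exon. Capitals mark exact matches, on either strand, to the letters AGGTCA, a repeat unit of PPAR response elements, to AGATAA, the core of GATA factor sites, to GGGCGG, known as the GC box, and to TATAAA, known as the TATA box. The first is Aqp7 at chr4:41048140-41048386, the second Aqp3 at chr4:41098184-41098433 and the third Aqp1 at chr6:55336049-55336298. The Aqp7 and Aqp3 windows adjoin the GENCODE positions given above, whereas the Aqp1 window ends upstream of the GENCODE start at 55336432.
Aqp7: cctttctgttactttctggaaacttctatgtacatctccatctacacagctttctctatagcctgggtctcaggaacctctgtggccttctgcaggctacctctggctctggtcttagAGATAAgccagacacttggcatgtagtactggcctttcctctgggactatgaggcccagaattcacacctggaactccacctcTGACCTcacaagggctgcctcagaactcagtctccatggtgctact
Aqp3: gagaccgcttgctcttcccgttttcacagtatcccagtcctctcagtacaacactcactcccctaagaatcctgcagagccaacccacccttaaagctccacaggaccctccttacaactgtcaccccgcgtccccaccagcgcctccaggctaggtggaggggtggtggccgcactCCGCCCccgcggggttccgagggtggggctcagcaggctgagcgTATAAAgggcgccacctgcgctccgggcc
Aqp1: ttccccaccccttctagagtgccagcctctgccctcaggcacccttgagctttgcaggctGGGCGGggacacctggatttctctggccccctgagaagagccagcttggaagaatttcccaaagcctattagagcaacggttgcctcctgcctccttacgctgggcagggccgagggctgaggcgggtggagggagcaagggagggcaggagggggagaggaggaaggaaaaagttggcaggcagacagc
The Aqp7 window of 247 bases had 0 CpG dinucleotides, against 14 in the Aqp3 window and 5 in the Aqp1 window of 250 bases, where the median of 32851 mouse promoters was 6. It held 1 match to AGGTCA and 1 to AGATAA, which 13.9% and 9.9% of all promoters of that length hold. The Aqp3 window held 1 GC box and 1 TATA box, which 32.7% and 12.4% of promoters hold, and the Aqp1 window held 1 GC box. A match is a description of the letters in the window and not a site of binding.

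Total counts per library ran from 17159401 to 29262554. Of the genes of the table, 14898 passed the filter on low counts and were tested with the quasi-likelihood test of edgeR, in a single fit over all libraries. Levels are given in CPM, read counts relative to library totals scaled with TMM factors, and a gene is called when its p-value, adjusted over all tested genes, is below 0.05. Fat markers separated the brown from the white libraries. The summed level of 10 thermogenic genes was 4649 to 6240 CPM in brown and 92.8 to 416 CPM in white libraries, and that of 8 white adipocyte genes was 240 to 656 CPM in brown and 1324 to 5047 CPM in white libraries. Some libraries stood apart within their depot. The inguinal libraries 1 and 3 carried 1769 and 2431 CPM of 10 B cell markers, against 101.4 in library 2 and at most 47.5 elsewhere, and less of the adipocyte and endothelial lists (19227 and 12237 against 32736 CPM, and 1761 and 1256 against 2310 CPM). The supraclavicular libraries carried salivary gland and muscle transcripts, and the interscapular ones carried both, mostly at lower levels. Interscapular library 3 had 2146 CPM of 12 muscle markers, against 432 and 673 CPM in libraries 1 and 2. Epididymal library 2 carried salivary transcripts and epididymal library 3 epithelial ones, with values beside the genes concerned.

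Aqp1 and Aqp7 made up nearly the whole aquaporin signal of every depot. Per kilobase of annotated exon, which allows genes to be compared, Aqp1 stood at 309 ± 36.5 RPKM (SD, n = 3) in iBAT and 264 ± 31.5 in scBAT. The white depots had 159.7 ± 50.3 in iWAT and 230.1 ± 7.45 in eWAT. Aqp7 stood at 111 ± 20, 91.3 ± 14.9, 47.5 ± 27.8 and 71.1 ± 1.66 on the same scale. The next highest mean was Aqp5 in scBAT, at 5.51 ± 5.47. Aqp1 and Aqp7 together held between 96.0% and 99.8% of the summed level per kilobase of the 8 genes in each library.

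Brown and white fat differed in most of the genes tested. Aqp1, Aqp4, Aqp5 and Aqp7 were higher in brown fat and Aqp3 and Aqp9 lower, while Aqp11 was not called and Aqp8 was too low to test. That is 6 of 7 tested members, where 69.4% of all tested genes were called, 31.3% higher and 38.1% lower. In 3 of the 7, Aqp3, Aqp4 and Aqp9, no brown library overlapped a white library, as in 45.1% of all tested genes. The median log2 difference was 0.57 for the 7 members and -0.11 for all tested genes. The 6 pairs of depots share libraries with each other and with this contrast.

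**Figure D1:**
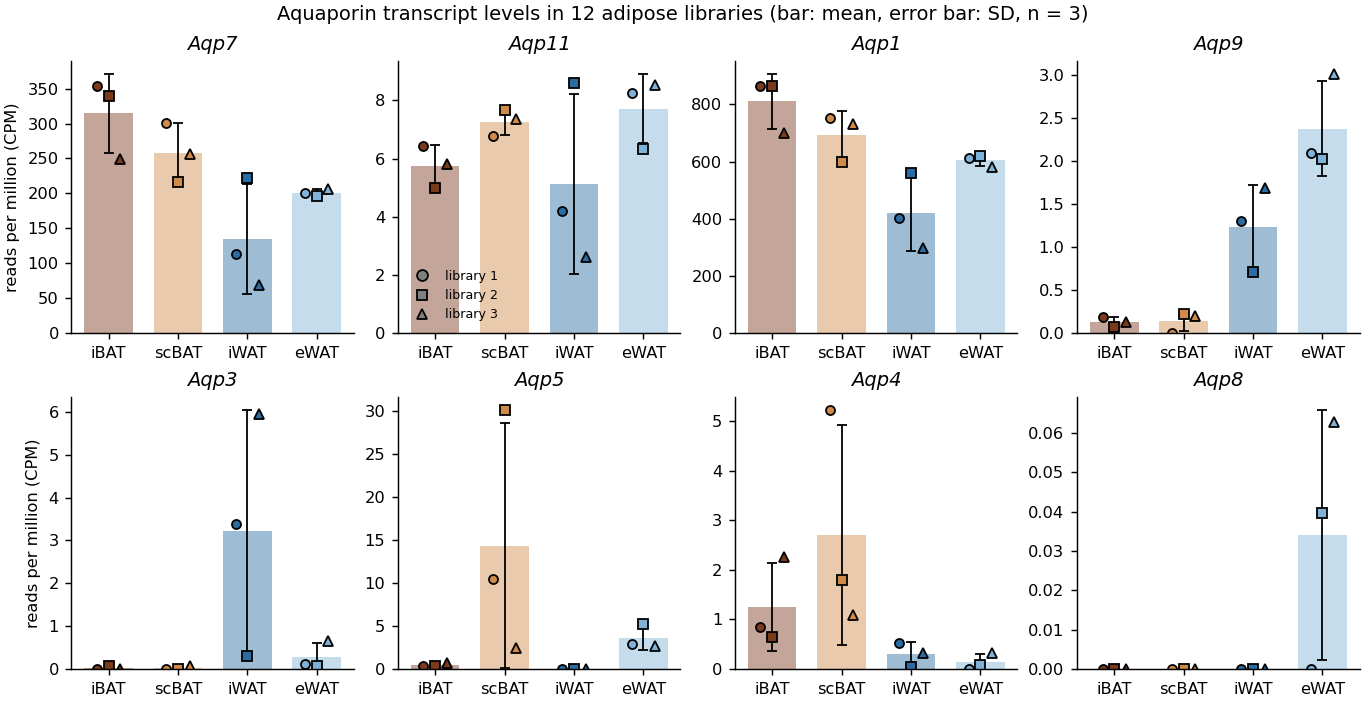
Level of each aquaporin gene in CPM (vertical axis, linear, its own scale in each panel) in the 4 depots, with each library as a point, the mean of 3 libraries as a bar and the SD as an error bar, cut at 0. Aqp7 and Aqp1 are present at 68.4 CPM or more in all libraries, whereas Aqp9 and Aqp3 are higher in white depots and Aqp5 and Aqp4 peak in scBAT.

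**Figure D2:**
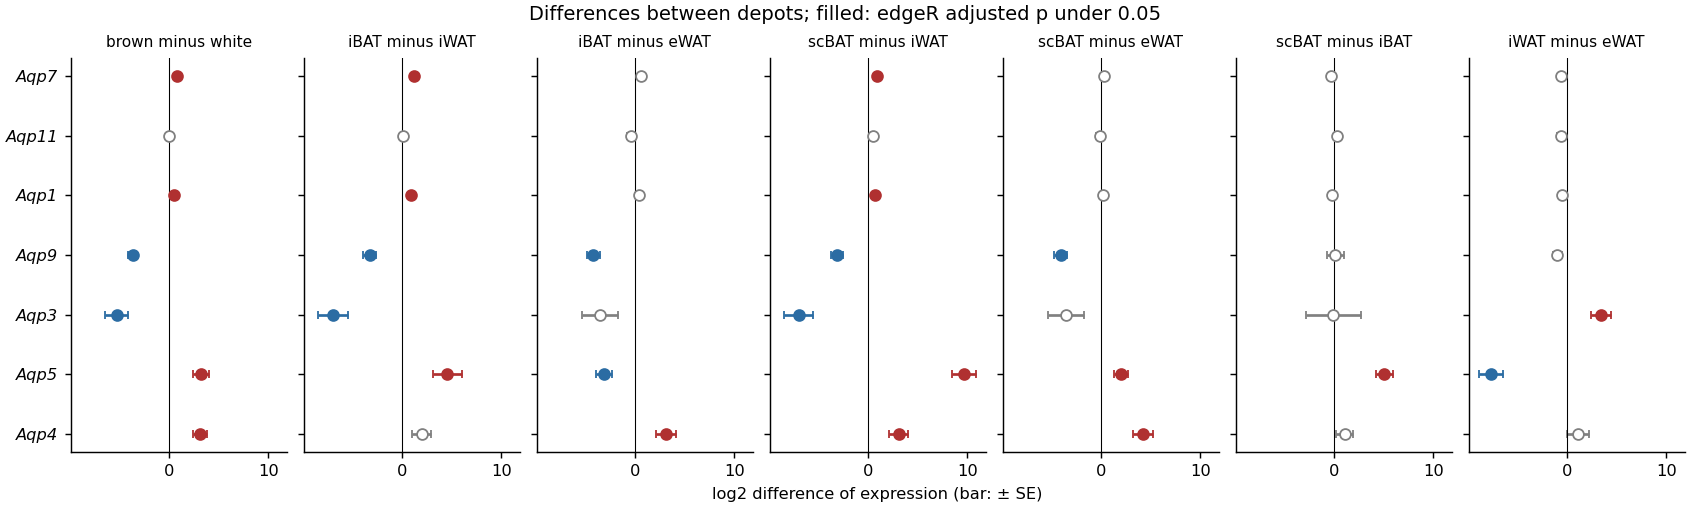
Log2 difference (horizontal axis, same scale in all panels) of the 7 tested aquaporin genes in 7 comparisons of depots, with the SE as an error bar and filled points for an edgeR adjusted p below 0.05 (red higher, blue lower). In the comparisons of brown with white fat, differences of Aqp7 and Aqp1 are small beside those of Aqp5, Aqp3 and Aqp9. Only Aqp5 is called between the brown depots.

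Aqp7, the adipocyte glycerol channel, was highest in brown fat. It stood at 354, 340.0 and 249.7 CPM in iBAT libraries 1 to 3 and at 301, 217 and 257 CPM in scBAT. The white libraries had 113.7, 221 and 68.4 CPM in iWAT and 201, 196 and 206 CPM in eWAT. The inguinal library with the fewest lymphocyte reads, number 2, was above 1 of the 3 scBAT libraries and above all eWAT libraries, and the inguinal libraries 1 and 3 were the lowest of the 12. The log2 difference between brown and white was 0.79 (SE 0.24, edgeR adjusted p = 0.0124), a 1.73-fold difference. It was called in all 19 alternatives, with adjusted p from 4.7e-05 to 0.0322, and was 0.45 without iWAT libraries 1 and 3 (edgeR adjusted p = 0.0107). By depot mean the order was iBAT, scBAT, eWAT and iWAT, and no pair of neighbours in it was called. Aqp7 was higher in iBAT than in iWAT (log2 difference 1.23, edgeR adjusted p = 0.00952) and in scBAT than in iWAT (0.94, edgeR adjusted p = 0.0326). Without iWAT libraries 1 and 3 these became 0.51 (edgeR adjusted p = 0.0678) and 0.22 (edgeR adjusted p = 0.406), and the second also lost its call without scBAT 1 or 3 or without iWAT 1 or 3 alone (adjusted p up to 0.104). Without iWAT 2 it was 1.505. Without iWAT 2, iWAT was also called lower than eWAT (log2 difference -1.14, edgeR adjusted p = 0.0011), where the value with all libraries was -0.58 (edgeR adjusted p = 0.194). Against eWAT, iBAT differed by 0.65 (SE 0.34, edgeR adjusted p = 0.131) with no overlap between the libraries, and this passed without iWAT 2, without iWAT 3 and without iWAT libraries 1 and 3 together (the lowest edgeR adjusted p = 0.00226).

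Among 9804 genes with a mean of at least 10 CPM, the profile over the 12 libraries nearest to that of Aqp7 was that of Car4, a membrane-bound carbonic anhydrase of capillary endothelium. The measure is the root mean square difference of centred log2 CPM, which was 0.0823 for Car4, against a spread of 0.638 of Aqp7 itself. By depot mean, Car4 had 85.5 ± 15.5 CPM in iBAT and 79.9 ± 8.79 in scBAT (SD, n = 3). Its white levels were 38.4 ± 20.9 for iWAT and 58.5 ± 0.88 for eWAT. Tmem45b was at 0.127.

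Aqp11, the intracellular channel, had a low level, with its widest range in iWAT. The iBAT libraries had 6.42, 4.97 and 5.81 CPM and the scBAT libraries 6.77, 7.67 and 7.36 CPM. The iWAT libraries had 4.18, 8.58 and 2.60 CPM and the eWAT libraries 8.27, 6.34 and 8.53 CPM. As for Aqp7, the inguinal libraries 1 and 3 were the lowest of all 12. The log2 difference between brown and white was 0.04 (SE 0.25, edgeR adjusted p = 0.892), and none of the 6 pairs of depots was called, with all adjusted p at least 0.199. In scBAT each library was above each iBAT library (log2 difference 0.34, SE 0.35, edgeR adjusted p = 1), as in 16.8% of tested genes with libraries that do not overlap. For iBAT minus iWAT the log2 difference of Aqp11 was 0.17 with all libraries. It was -0.58 without iWAT libraries 1 and 3, an alternative chosen after seeing the data that leaves 1 iWAT library. Without iWAT 2, Aqp11 was called higher in iBAT than in iWAT, by 0.78 (edgeR adjusted p = 0.0109). The level in iWAT was then also below scBAT and eWAT, by log2 differences of 1.10 for scBAT minus iWAT and -1.18 for iWAT minus eWAT. Nupr1, a stress-response gene (distance 0.132), Rab40b (0.140) and AI464131 (0.152) had the profiles nearest to it.

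Several genes that make or reuse glycerol had larger differences between brown and white fat than Aqp7, and others were not called. Of 18 genes of glycerol and glycerol 3-phosphate handling, a list chosen with earlier results of these data known, 8 were higher in brown fat, 1 was lower and 9 were not called. That is 9 of 18 called, where 69.4% of all tested genes were called, 31.3% higher and 38.1% lower. Without iWAT 2 the list had 12 higher and 1 lower, 13 of 18 called, where 77.2% of all tested genes were called. With all libraries the median log2 difference of the 18 genes was 0.43, against -0.11 for all tested genes. Gyk, the glycerol kinase that returns glycerol to triglyceride synthesis (now named Gk), had 234 ± 10.1 CPM in iBAT and 190.2 ± 18.6 CPM in scBAT (SD, n = 3). In iWAT it stood at 13.9 ± 2.82 and in eWAT at 12.8 ± 3.61 CPM, a log2 difference of 3.98 (SE 0.16, edgeR adjusted p = 2.7e-08). Gpd2, the mitochondrial glycerol 3-phosphate dehydrogenase, rose by 3.52 (SE 0.20, edgeR adjusted p = 1.91e-07) and Gpd1, its cytosolic partner, by 2.12 (SE 0.24, edgeR adjusted p = 1.85e-05). Pgp, a phosphatase that frees glycerol from glycerol 3-phosphate, rose by 1.56 (edgeR adjusted p = 7.24e-07) and Agpat6, an acyltransferase of triglyceride synthesis now named Gpat4, by 1.43 (edgeR adjusted p = 4.62e-05).

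Agpat9, another such acyltransferase (now Gpat3), went the other way, with 28.8 ± 11.2 CPM in iBAT and 37.6 ± 11.7 CPM in scBAT. Its white levels were 83.2 ± 39.5 CPM for iWAT and 191.5 ± 24.2 CPM for eWAT (log2 difference -1.94, edgeR adjusted p = 0.000103). Of the lipolysis genes, Pnpla2, the lipase of the first step, rose by 0.89 (SE 0.23, edgeR adjusted p = 0.00484) and its inhibitor G0s2 by 1.62 (SE 0.31, edgeR adjusted p = 0.00085). Lipe and Mgll, the lipases of the second and the last step, had log2 differences of 0.24 (edgeR adjusted p = 0.343) and -0.15 (edgeR adjusted p = 0.58). Pck1, which feeds the making of new glycerol 3-phosphate, rose by 0.84 (edgeR adjusted p = 0.0119). Between the brown depots 0 of the 18 were called in the edgeR test, against 0.329% of tested genes, and 0 had an unadjusted p under 0.05. The DESeq2 and limma-voom tests also called 0 there. Gyk had a log2 difference of -0.30 (SE 0.19, edgeR adjusted p = 1).

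**Figure D3:**
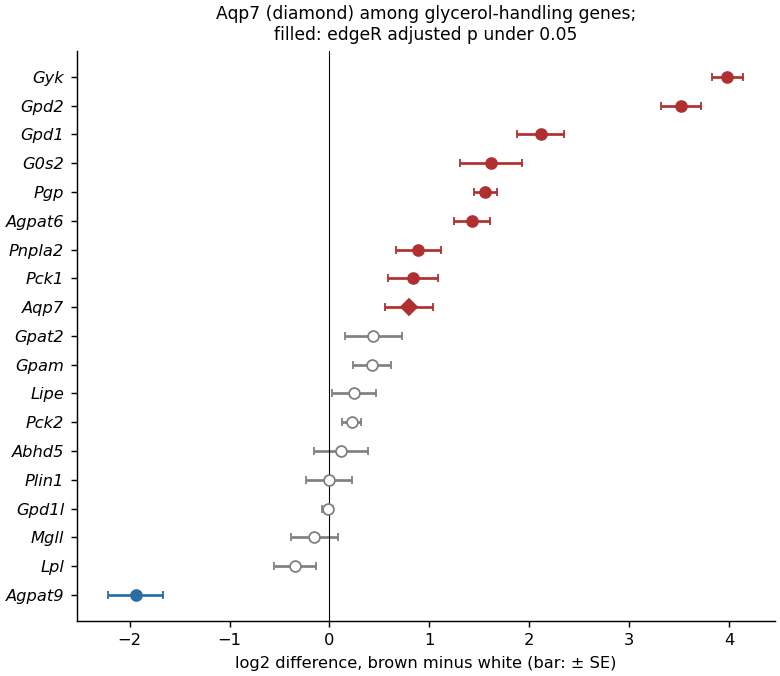
Log2 difference between brown and white fat (horizontal axis) of Aqp7 and 18 genes of glycerol handling, ordered by value, with the SE as an error bar and filled points for an edgeR adjusted p below 0.05. Gyk and Gpd2 stand at the top, at 3.98 and 3.52, Aqp7 lies at 0.79, and Agpat9 is the single gene called lower with all libraries.

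Aqp1, the endothelial water channel, was the most abundant member in every library. It stood at 866, 866 and 700 CPM in iBAT libraries 1 to 3 and at 751, 599 and 731 CPM in scBAT. In iWAT it stood at 401, 560 and 297 CPM, and in eWAT at 611, 619.7 and 582 CPM. All iBAT libraries were above all white libraries, and scBAT overlapped eWAT. The log2 difference between brown and white was 0.57 (SE 0.15, edgeR adjusted p = 0.00563), a 1.49-fold difference, called in all 19 alternatives (adjusted p from 5.01e-05 to 0.0163) and 0.38 without iWAT libraries 1 and 3 (edgeR adjusted p = 0.00399). The order by depot mean was iBAT, scBAT, eWAT and iWAT, and neighbours in it were not called, although all iWAT libraries lay below all eWAT libraries (log2 difference -0.53, SE 0.21, edgeR adjusted p = 0.0801, called with DESeq2 and without iWAT 2, where it was -0.79). Both brown depots exceeded iWAT, iBAT by 0.95 (edgeR adjusted p = 0.00288) and scBAT by 0.73 (edgeR adjusted p = 0.0126). Without iWAT libraries 1 and 3 these were 0.54 (edgeR adjusted p = 0.0135) and 0.31 (edgeR adjusted p = 0.118). Ankrd40 (distance 0.0935), Mocs2 (0.0975), an enzyme of molybdenum cofactor synthesis, and Thra (0.102), a thyroid hormone receptor, had the profiles nearest to that of Aqp1.

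Erythroid transcripts, from the other known site of Aqp1, were like it lowest in iWAT, but were not highest in iBAT. Of 7 erythroid markers 5 were matched in the table, and these summed to 28.7 to 46.5 CPM in brown libraries, 7.04 to 20.5 CPM in iWAT and 22.8 to 36.0 CPM in eWAT. The 2 that were tested, Alas2 of haem synthesis and the anion exchanger Slc4a1, were both higher in brown than in white fat, by log2 differences of 0.88 (edgeR adjusted p = 0.00603) and 1.01 (edgeR adjusted p = 0.0155). Both were also higher in iBAT and in scBAT than in iWAT, and lower in iWAT than in eWAT. Neither was called between a brown depot and eWAT. Alas2 averaged 39.2 CPM in scBAT, 30.2 in iBAT, 27.6 in eWAT and 12.6 in iWAT, whereas Aqp1 was highest in iBAT. The globin genes Hba-a1 and Hba-a2 had 1 and 0 reads over all libraries, and Hbb-bs and Hbb-bt were not matched. Globin counts were therefore not used as a measure of red cell RNA. The part of red cells in the Aqp1 difference was not tested.

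The ratio of Aqp1 to Aqp7 reads within a library varied little outside iWAT libraries 1 and 3. It ranged from 2.45 to 2.80 in iBAT, from 2.50 to 2.84 in scBAT and from 2.83 to 3.15 in eWAT. In iWAT it was 3.53, 2.53 and 4.35 in libraries 1 to 3, so that library 2 fell in the range of the brown depots.

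Set against markers of adipocytes and of endothelium, both abundant channels were higher in brown fat. The level of Aqp7 was divided by the geometric mean of 16 pan-adipocyte genes of the same library, a list in which 7 genes were higher and 3 lower in brown fat. Against iWAT, 6 of the list were higher and 2 lower in iBAT, and 6 higher and 1 lower in scBAT. Against eWAT, 0 were higher and 5 lower in iBAT, and 0 higher and 3 lower in scBAT. The median log2 differences of the list from eWAT were -0.22 and -0.17, and a lower list raises the ratio. The log2 ratio was -1.93 ± 0.35 (SD, n = 3) in iBAT and -2.26 ± 0.31 in scBAT. The white depots had -2.87 ± 0.11 in iWAT and -2.85 ± 0.12 in eWAT. Every brown library was above every white library, and brown exceeded white by 0.77 (exact two-sided permutation test over libraries, 6 against 6, p = 0.00216, the smallest that the 924 splits can give, adjusted p = 0.00325 over 3 ratios). Each side of this test pooled both of its depots, so its 6 libraries are not replicates of a single tissue. Aqp11 divided by the same genes differed by 0.03 (exact permutation p = 0.807, adjusted p = 0.807), with depot means from -7.70 in iBAT to -7.40 in scBAT.

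Aqp1 divided by the geometric mean of 14 blood endothelial genes, of which 4 were higher and 5 lower in brown fat, gave a log2 ratio of 2.67 ± 0.08 in iBAT and 2.65 ± 0.16 in scBAT. The white depots stood at 2.03 ± 0.06 in iWAT and 2.12 ± 0.02 in eWAT. The groups did not overlap, and brown exceeded white by 0.58 (exact permutation p = 0.00216, adjusted p = 0.00325). Across the 3 inguinal libraries these ratios ran from 1.97 to 2.09. Against eWAT, 3 of the endothelial list were higher and 4 lower in iBAT, and 0 higher and 4 lower in scBAT. The median log2 differences of this list from eWAT were 0.04 and -0.20, and a lower list raises the ratio. Aqp1 itself differed from eWAT by 0.42 in iBAT and 0.20 in scBAT, with no call in either. Without iWAT libraries 1 and 3 the brown minus white differences of the Aqp7 and Aqp1 ratios were 0.73 and 0.56. With the lists exchanged, an addition made after seeing the data, the log2 ratio of Aqp7 to the endothelial list was 1.29 ± 0.18 in iBAT, 1.21 ± 0.20 for scBAT, 0.27 ± 0.38 for iWAT and 0.53 ± 0.06 for eWAT. That of Aqp1 to the pan-adipocyte list was -0.56 ± 0.26, -0.83 ± 0.22, -1.11 ± 0.29 and -1.26 ± 0.04 in that order.

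**Figure D4:**
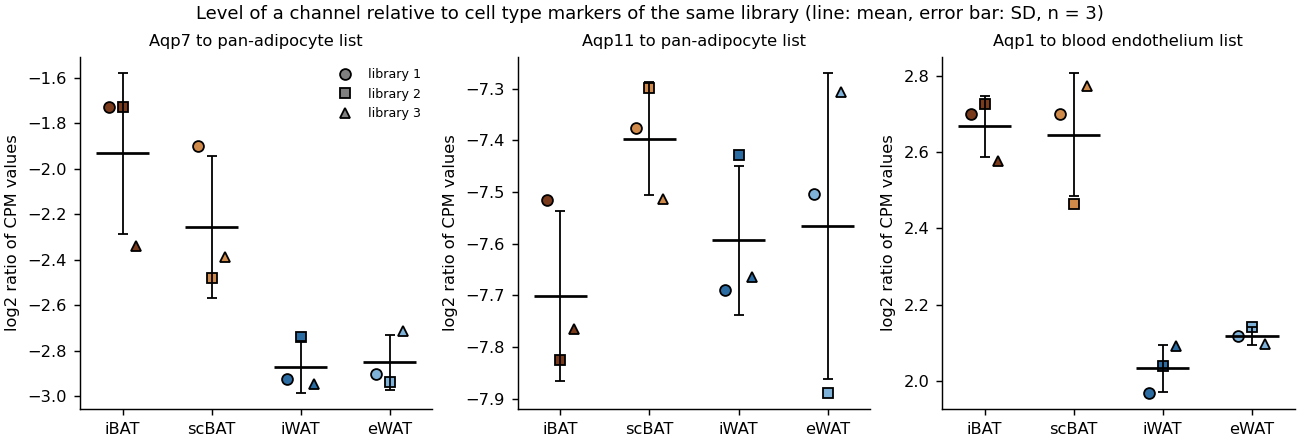
Log2 ratio (vertical axis) of Aqp7 and Aqp11 to the geometric mean of 16 pan-adipocyte genes and of Aqp1 to that of 14 blood endothelial genes, by depot, with a point per library, a line at the mean and the SD as an error bar. For Aqp7 and Aqp1 every brown library lies above every white library, and for Aqp11 the depots overlap.

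Aqp9, the glycerol channel of liver and leukocytes, was a low transcript of white fat. It had 3, 1 and 2 reads in iBAT and 0, 4 and 3 reads in scBAT. In iWAT it had 37, 16 and 51 reads (1.30, 0.704 and 1.68 CPM) and in eWAT 59, 51 and 96 reads (2.09, 2.02 and 3.01 CPM). All white libraries were above all brown ones, and all eWAT above all iWAT libraries. Brown fat was lower by -3.63 on the log2 scale (SE 0.45, edgeR adjusted p = 4e-05), and pooled reads gave a white to brown ratio of 13.9 (95% exact counting interval 8.01 to 26.4, which covers counting error only). It was called in all 4 pairs of a brown with a white depot in each of 19 alternatives. The white depots differed by -0.94 for iWAT minus eWAT (SE 0.48, edgeR adjusted p = 0.147).

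Macrophage markers, like Aqp9, were lower in brown than in white fat, but did not move with it between the brown depots. The summed level of 10 such genes, all 10 called lower in brown fat, was 1436 to 1619 CPM in white libraries. It was 244 to 295 CPM in iBAT and 416 to 463 CPM in scBAT. Of this list 4 were called higher in scBAT than in iBAT, where 0.329% of all tested genes were called. Aqp9 had a log2 difference of 0.15 there and was not called. Aqp9 reads per 1000 reads of this list ranged from 1.36 to 1.87 in eWAT, from 0.491 to 1.04 in iWAT and from 0 to 0.751 in brown libraries. Neutrophil markers, at 129.5, 16.2 and 115.9 CPM in iWAT libraries 1 to 3 and 8.62 to 9.91 CPM in eWAT, were lower in eWAT, where Aqp9 was highest, but within iWAT both were lowest in library 2. The part of either cell type in the Aqp9 difference was not tested. Slco2a1, a prostaglandin transporter (distance 0.486), Rab32 (0.517) and Cyp1b1 (0.556) had the nearest profiles. The annotated antisense gene Gm32511 overlaps Aqp9, and without a stated strand setting its reads could not be told apart.

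Aqp3, the neighbour of Aqp7, was nearly silent in brown fat. It had 0, 1 and 0 reads in iBAT and 0, 0 and 1 in scBAT. In iWAT it had 96, 7 and 181 reads (3.38, 0.308 and 5.96 CPM) and in eWAT 3, 2 and 21 reads (0.106, 0.0793 and 0.658 CPM). Pooled reads of iWAT against both brown depots gave a ratio of 169 (95% exact counting interval 46.5 to 1405). Aqp3 was lower in brown than in white fat by -5.22 on the log2 scale (SE 1.15, edgeR adjusted p = 0.00207, from 1.29e-05 to 0.024 over 19 alternatives), the opposite direction from Aqp7. It was higher in iWAT than in eWAT (log2 difference 3.45, edgeR adjusted p = 0.0308), although iWAT 2 lay below eWAT 3. That call was lost in 8 of 19 alternatives, among them the fits without iBAT 2, scBAT 3, iWAT 1, iWAT 3, eWAT 1 or eWAT 2 (adjusted p up to 0.106), and without iWAT libraries 1 and 3 the difference was 0.12 (edgeR adjusted p = 0.977). Both brown depots were called lower than iWAT, by -6.92 for iBAT (edgeR adjusted p = 0.00246) and -6.97 for scBAT (edgeR adjusted p = 0.00241). Without iWAT libraries 1 and 3 these were -3.53 (edgeR adjusted p = 0.0959) and -3.58 (edgeR adjusted p = 0.0924). Against eWAT neither was called, at -3.47 for iBAT (edgeR adjusted p = 0.127) and -3.52 for scBAT (edgeR adjusted p = 0.122). Both passed without iWAT 2 (edgeR adjusted p = 0.0369 and 0.0336) and without iWAT libraries 1 and 3 (0.0431 and 0.0404).

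Within iWAT, Aqp3 ran with lymphocyte transcripts. It had 1.21, 1.81 and 1.49 reads per 1000 reads of 20 B and T cell markers in libraries 1 to 3. Ptpn22, a phosphatase of lymphocytes (distance 0.518), Fcho1 (0.523) and Il27ra (0.526), a cytokine receptor of T cells, had the nearest profiles. In eWAT library 3 the ratio was 9.49 (counting interval 5.86 to 14.5), against 3.50 and 2.41 in eWAT libraries 1 and 2, from 3 and 2 reads. That library also carried 1559 reads of the epithelial adhesion gene Epcam against 18 and 28, and 840 reads of the tight junction gene Cldn7 against 1 and 7. The 12 surface epithelial markers summed to 234 CPM there and to 67.0 and 46.9 CPM in eWAT libraries 1 and 2. Of these markers, Krt18 and Trp63 varied little across eWAT, at 11.4 ± 1.70 and 11.2 ± 1.04 CPM (SD, n = 3). In the 3 iWAT libraries the 12 markers summed to 14.5 to 16.2 CPM, although Epcam alone had 77, 1 and 129 reads in libraries 1 to 3. The part of these cells in the Aqp3 level was not tested.

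Aqp5, the water channel of salivary acini, had the widest range of the family. It stood at 0.306, 0.319 and 0.646 CPM in iBAT and at 10.4, 30.1 and 2.47 CPM in scBAT (168, 537 and 39 reads). It had 1, 0 and 0 reads in iWAT and 82, 133 and 86 reads in eWAT (2.91, 5.27 and 2.70 CPM). By depot mean the order was scBAT, eWAT, iBAT and iWAT, and each pair of neighbours in it was called, although scBAT 3 lay below every eWAT library. The log2 differences were 1.98 for scBAT minus eWAT (edgeR adjusted p = 0.0362), -3.08 for iBAT minus eWAT (edgeR adjusted p = 0.00974) and 4.58 for iBAT minus iWAT (edgeR adjusted p = 0.0188). With 1 read in all of iWAT, the ratio of eWAT to iWAT was 288 with a counting interval of 51.3 to 11404 (log2 difference of iWAT minus eWAT -7.66, edgeR adjusted p = 0.00406, lost without iWAT libraries 1 and 3 at 0.152).

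Brown exceeded white by 3.28 (SE 0.80, edgeR adjusted p = 0.00374), but libraries overlapped, and the call was lost with limma-voom and without iWAT libraries 1 and 3 (edgeR adjusted p = 0.0809, the highest of 19 alternatives). The difference between the brown depots, 5.07 for scBAT minus iBAT (SE 0.87, edgeR adjusted p = 0.0443), was the single member called there and was lost in 13 of 19 alternatives. These included leaving out any iBAT library, scBAT 1 or 2, iWAT 1 or any eWAT library, with adjusted p up to 0.298. Upper quartile scaling, limma-voom and the replicate block were also among them, and the highest adjusted p over the 19 alternatives was 0.698. The difference from eWAT was lost in 10 of 19 and fell to 0.83 without scBAT 2 (highest adjusted p 0.298). In addition it lost its call without iBAT 1 or 2, scBAT 1, iWAT 1 or eWAT 1 or 3. The difference between iBAT and iWAT was lost in 5 of 19, among them limma-voom and the fit without iWAT libraries 1 and 3 (log2 difference 6.15). The others were the fits without iBAT 3, iWAT 2 or iWAT 3 (adjusted p up to 0.0815). That between iBAT and eWAT was lost with limma-voom alone (limma-voom adjusted p = 0.0898).

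Salivary transcripts moved with Aqp5 in brown fat. The 15 salivary markers summed to 3629 to 17798 CPM in scBAT and 679 to 1511 CPM in iBAT. The white libraries had 179 to 575 CPM in iWAT and 489 to 3757 CPM in eWAT, where library 2 was the highest. Of the 11 tested, 10 were higher in brown than in white fat, but against eWAT alone 4 were higher in scBAT and 0 in iBAT. Car6, the secreted carbonic anhydrase of saliva, was taken as a yardstick after its values were seen, because Amy1 of the same list was high in all depots. Aqp5 had 13.6, 16.7 and 13.2 reads per 1000 Car6 reads in scBAT libraries 1 to 3, although Car6 itself ran from 2960 to 32067 reads. The iBAT libraries had 15.8, 6.56 and 11.0 per 1000, from 5 to 10 Aqp5 reads each. Against the whole salivary list without Amy1 the scBAT ratio was less even, at 1.47 (95% exact counting interval 1.25 to 1.71), 2.43 (2.23 to 2.65) and 0.966 (0.687 to 1.32) reads per 1000, so that the even ratio holds for Car6 and not for the list. The part of gland tissue in the Aqp5 level of brown fat was not tested. Wfdc12 (distance 1.51), Dnase1 (1.69), a nuclease secreted by salivary glands, and Ggh (1.69) had the nearest profiles, at larger distances than the nearest genes of the other members.

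In eWAT the ratio differed between libraries. Library eWAT 2, with 5719 Car6 reads, had 23.3 Aqp5 reads per 1000 Car6 reads (95% exact counting interval 19.4 to 27.6). Libraries 1 and 3, with 160 and 247 Car6 reads, had 512.5 (388 to 673) and 348 (269 to 447). These 2 libraries had fewer Car6 reads than any iBAT library, and more Aqp5. Against the salivary list without Amy1, eWAT 1 and 3 had 31.0 (24.6 to 38.6) and 21.8 (17.4 to 27.0) Aqp5 reads per 1000, above every scBAT library, whereas eWAT 2, at 1.95 (1.64 to 2.32), lay within the scBAT range. Of 10 epididymis markers, Lcn5, Spint4 and Cst11 had 0 reads in all libraries, and Crisp1, the highest of the list, followed the salivary genes with 8045 reads in scBAT 2 and 21, 929 and 33 in eWAT. Rnase10, the other epididymis marker that was tested, was highest in eWAT, with 22, 28 and 22 reads there and 3 to 19 elsewhere, and scBAT was lower than eWAT by a log2 difference of -1.80 (edgeR adjusted p = 0.0139). The remaining 5 had at most 1 read in any library. Mesothelial markers, which line the epididymal pad, summed to 456 to 566 CPM in eWAT and to at most 14.9 CPM elsewhere. Their part, and that of epididymal adipocytes, in the eWAT level of Aqp5 was not tested.

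Aqp4, the channel of glia and fast muscle, was scarce and highest in brown fat. It had 14, 10 and 35 reads in iBAT and 84, 32 and 17 reads in scBAT. In iWAT it had 15, 1 and 10 reads, and in eWAT 0, 2 and 10. Every brown library, from 0.637 to 5.22 CPM, was above every white library. The log2 difference between brown and white was 3.12 (SE 0.70, edgeR adjusted p = 0.00234, at most 0.00857 over 19 alternatives). It was higher in scBAT than in eWAT (4.25, edgeR adjusted p = 0.0058) and than in iWAT (3.10, edgeR adjusted p = 0.0155, but 0.0817 without scBAT 1, and 5.76 in log2 without iWAT libraries 1 and 3). It was also higher in iBAT than in eWAT (3.14, edgeR adjusted p = 0.0259, lost without iBAT 3, eWAT 1 or eWAT 2, up to 0.113, and 4.84 without eWAT 3). The difference of iBAT minus iWAT was 1.999 (edgeR adjusted p = 0.0896), and those between the brown and between the white depots were not called.

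Skeletal muscle markers moved with Aqp4. The 12 muscle genes, all 12 called higher in brown fat, summed to 432 to 6647 CPM in brown and 55.6 to 230 CPM in white libraries. The library with the most of them in each brown depot, iBAT 3 and scBAT 1, also had the most Aqp4. Aqp4 had 1.98, 0.947 and 1.05 reads per 1000 muscle marker reads in iBAT and 0.785, 0.802 and 0.559 in scBAT. In iWAT libraries 1 and 3 it had 5.37 (counting interval 3.00 to 8.87) and 5.92 (2.83 to 10.9), above every brown library. Schwann cell and glia markers summed to 290 to 369 CPM in brown and 245 to 477 CPM in white libraries, with 2 of 7 tested genes higher and 2 lower in brown fat. Pgam2 (distance 0.619), the muscle form of a glycolytic enzyme, and Neb (0.640), a sarcomere gene, were among the nearest profiles. The part of muscle in the Aqp4 level was not tested. An annotated antisense gene overlaps Aqp4, and its reads could not be told apart.

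**Figure D5:**
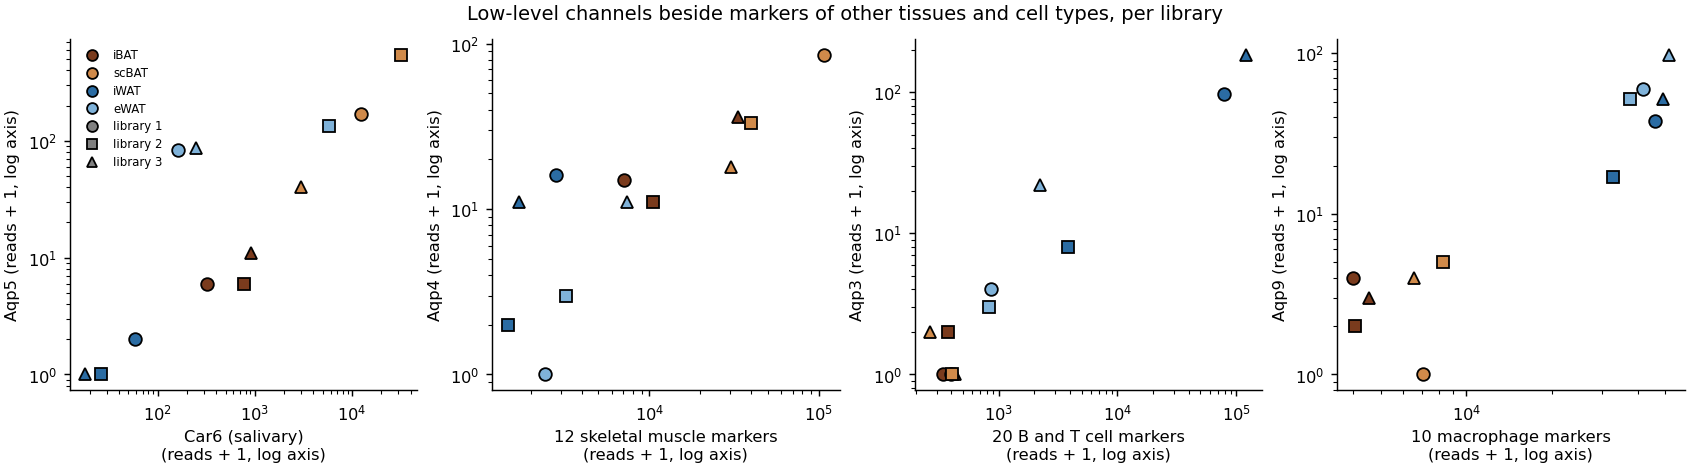
Reads of Aqp5, Aqp4, Aqp3 and Aqp9 (vertical axes, reads + 1, log scale) against reads of Car6 or of marker lists of skeletal muscle, B and T cells and macrophages (horizontal axes, reads + 1, log scale), with a point per library, colour for the depot and symbol for the library number. In the Aqp5 panel eWAT 1 and 3, with 82 and 86 Aqp5 reads, lie far to the left of scBAT 1, with 168.

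Aqp8, a channel of gut, liver and testis, had 0, 1 and 2 reads in eWAT and 0 reads in the other 9 libraries. A count of 0 allows a level of up to 0.0631 CPM in iBAT, 0.0603 in scBAT and 0.0368 in iWAT, and no fold was computed. Of the remaining family members in the table, Aqp6 and Aqp12 had 0 reads in all libraries, which leaves the same limits and 0.0352 CPM in eWAT. Aqp2, the vasopressin-regulated channel of the kidney, had 0 to 10 reads per library, and Mip, the lens channel, had 0 to 4. None of these 4 passed the filter.

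Over the pairs of depots, the share of members called is read against the share of all tested genes. Between iBAT and iWAT 5 of 7 members were called, 3 higher and 2 lower (63% of all tested genes, 27.9% higher and 35.2% lower), and libraries of 6 did not overlap (60.9%). Between scBAT and iWAT 6 of 7 were called, 4 higher and 2 lower (61.6%, 28.1% and 33.5%), and 5 did not overlap (59.1%). For iBAT against eWAT 3 of 7 were called, 1 higher and 2 lower (53.7%, 26.2% and 27.5%), and 6 did not overlap (74.6%). For scBAT against eWAT 3 of 7 were called, 2 higher and 1 lower (51.9%, 26% and 25.8%), and 4 did not overlap (73.1%). Between iWAT and eWAT 2 of 7 were called, Aqp3 higher and Aqp5 lower (28.7%, 17.7% and 11%), and 3 did not overlap (34.9%). Between scBAT and iBAT Aqp5 alone was called, higher in scBAT (0.329%, 0.235% and 0.094%), and 2 did not overlap (16.8%). Without iWAT libraries 1 and 3 the counts of members called were 3, 3, 7, 4, 0 and 0 in the same order, and the share of all tested genes called moved as well, to 50.6%, 48.8%, 67.9%, 66.6%, 5.80% and 1.87%. With all libraries, Aqp3 in iWAT and Aqp5 in scBAT were called above each of the other 3 depots, and each had calls that were lost in the alternatives given above.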

How the data were processed

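RNA of 12 mouse adipose libraries was purified with a kit for fatty tissue and sequenced from TruSeq libraries, per the labels. The deposited table holds raw counts, whole numbers of reads per gene symbol, with no normalization by the authors. Per the submitters' processing notes, the tools were HTSeq 0.6.1p1, STAR 2.4.2a, edgeR, bcl2fastq 1.8.3 and Picard 1.119 and the build was mm10, with no roles given, and annotation and strand setting are not given in the sources used here. From the deposited counts, genes were kept with filterByExpr and scaled with TMM, and a quasi-likelihood F test was fitted in edgeR 4.0.16 (R 4.3.3) with a mean per depot, 8 residual degrees of freedom and Benjamini-Hochberg adjustment. Library depth was 17159401 to 29262554 counts, and intervals and floors (3 counts) cover counting error only. Exon lengths and positions came from GENCODE vM21 (GRCm38). Alternatives used DESeq2 1.42.0, limma 3.58.1 (voom), other scalings, no filter, a replicate block and libraries left out. The test was tried on simulated data. The members and lists were chosen with earlier results of these data known. All members were named; of the glycerol list, the 6 genes with the smallest adjusted p in brown against white fat and any called against the majority were named, and others for their role. For each tested member the 3 nearest profiles were found, of which some are not reported here.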

Additional observations from a re-analysis of the deposited data

How the results depend on the processing

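Of 26 calls of a member in the 7 comparisons, 12 held in all 19 alternatives, and 7 were lost when 1 of 12 libraries was left out. In brown against white fat 6 members were called in each of those 12 fits and 5 with limma-voom and without iWAT libraries 1 and 3, the latter an alternative chosen after seeing the data. Between the brown depots the count of members went from 1 to 0 with upper quartile scaling, limma-voom, the replicate block and without iWAT 1 and 3 (0 to 1 with 1 library left out), where with all libraries the unadjusted edgeR p of Aqp5 was 0.000134. Between the white depots the share of all tested genes called moved too. It was 28.7% with all libraries, 22.6% with limma-voom, 38.0% with the DESeq2 test, 21.9% with the replicate block and 67.2% without iWAT 2. The count of members there went from 2 to 1 with limma-voom (1 to 5 with 1 library left out). The count of glycerol genes went from 2 to 4 with the DESeq2 test and to 1 with the replicate block (0 to 14 with 1 library left out, 14 without iWAT 2). These 2 glycerol genes were lower in iWAT, while without iWAT 1 and 3 there were 3 and all were higher. Without iWAT 1 and 3, the count of members became 3 in iBAT against iWAT, 7 in iBAT against eWAT (2 to 6 with 1 library left out) and 3 in scBAT against iWAT, and 13 glycerol genes were called in iBAT (6 to 13) and in scBAT (6 to 12) against eWAT. Aqp11 in iBAT minus iWAT changed sign there, to -0.58, from a value of 0.17 that was not called. In that fit the lone iWAT library is assumed to vary like the other depots. Same-numbered libraries of different depots did not deviate together (r from -0.18 to 0.23 over 18 pairs of libraries, across genes), and the numbers were not taken as pairs. The cause of these changes was not tested. Genes with few reads, Aqp3, Aqp4, Aqp5, Aqp8 and Aqp9 in some depots, are limited by depth.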
